A study of Arabidopsis thaliana with 19 samples.

Results

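The plastid genome of Arabidopsis thaliana encodes core subunits of the photosynthetic machinery of the thylakoid membrane. The genes described here are those on that genome whose symbol starts with psa, psb, pet, atp or ndh or is rbcL, and that a probe set of 1 gene measures on the Affymetrix ATH1 array. There were 43 of them, of 44 such genes in the gene table of the TAIR10.1 assembly and among 13513 probe sets annotated with 1 gene. *ndhB*, present in both copies of the inverted repeat, was read by a probe set listed for both copies and was left out. Each of the 43 genes had 1 probe set. They comprise 15 genes named for photosystem II, 5 for photosystem I, 6 for the cytochrome b6f complex, 6 for the ATP synthase, 10 for the NDH complex and 1 for Rubisco.

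RNA came from 19 single seedlings of Arabidopsis, 2 weeks old, grown on 1x Murashige and Skoog medium. They were 5 triploids with paternal excess (3xp) and 5 with maternal excess (3xm), each with 3 genome copies, 5 tetraploids (4x) with 4 copies, and 4 diploids (2x) with 2 copies as the group they are set against. All belong to an autopolyploid series, in which every genome copy comes from 1 species. The accession, the parent lines and how the polyploids were made are not given in the sources used here, and a seedling is a mixture of shoot and root. Each seedling was hybridised to 1 array, and the deposited values are on the log2 scale after normalization to a common distribution, so that a value is a level relative to the rest of the array. Fewer plastids or cells and less RNA per plastid cannot be told apart in such values. Of 3 listed shoot markers, 1 had a probe set annotated with 1 gene. This leaf marker, *RCA*, lay between 13.72 and 13.98 on all arrays, and 1 gene cannot show that the share of shoot was equal. Of the 3 root markers, *PYK10* lay between 12.17 and 12.76, *EXPA7* between 5.04 and 7.94 and *EXPA18* between 5.45 and 8.38, so the root hair expansins varied far more between seedlings.

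Photosystem II splits water and passes electrons through plastoquinone to the cytochrome b6f complex and on to photosystem I. The proton gradient built on the way drives the ATP synthase, and the NDH complex returns electrons to plastoquinone in cyclic flow around photosystem I. Rubisco fixes carbon dioxide, and its large subunit is made in the plastid while the small subunit is made in the cytosol. Most of these complexes combine plastid-encoded and nucleus-encoded subunits. Plastid genes are transcribed in long units by a bacterial-type and a phage-type polymerase. Their transcripts are processed by nucleus-encoded proteins, and tails of adenosines on them are known mainly as a mark for decay. The labelling kit used here primes on such tails, and the part of tail content in the values was not tested.

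The seedlings differed most within the diploids. Seedling 2x 1 stood lowest of all 19 and seedling 2x 3 highest, when each seedling was summarised by the median over the 43 genes of the log2 value minus that gene's median over all seedlings. This deviation was −0.12, 0.03, 0.18, −0.01 and −0.19 in the 3xp seedlings, 0.00, 0.07, 0.23, 0.08 and −0.24 in the 3xm seedlings and −0.01, −0.08, 0.09, 0.09 and 0.10 in the 4x seedlings, against −0.61, −0.20, 0.30 and −0.29 in the 2x seedlings. Seedlings 2x 1, 2x 2 and 2x 4 lay low and 2x 3 above every polyploid, so the groups overlapped. The group means were −0.02 ± 0.14 in 3xp, 0.03 ± 0.17 in 3xm and 0.04 ± 0.08 in 4x (SD, n = 5 each), against −0.20 ± 0.38 in 2x (SD, n = 4).

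**Figure D1:**
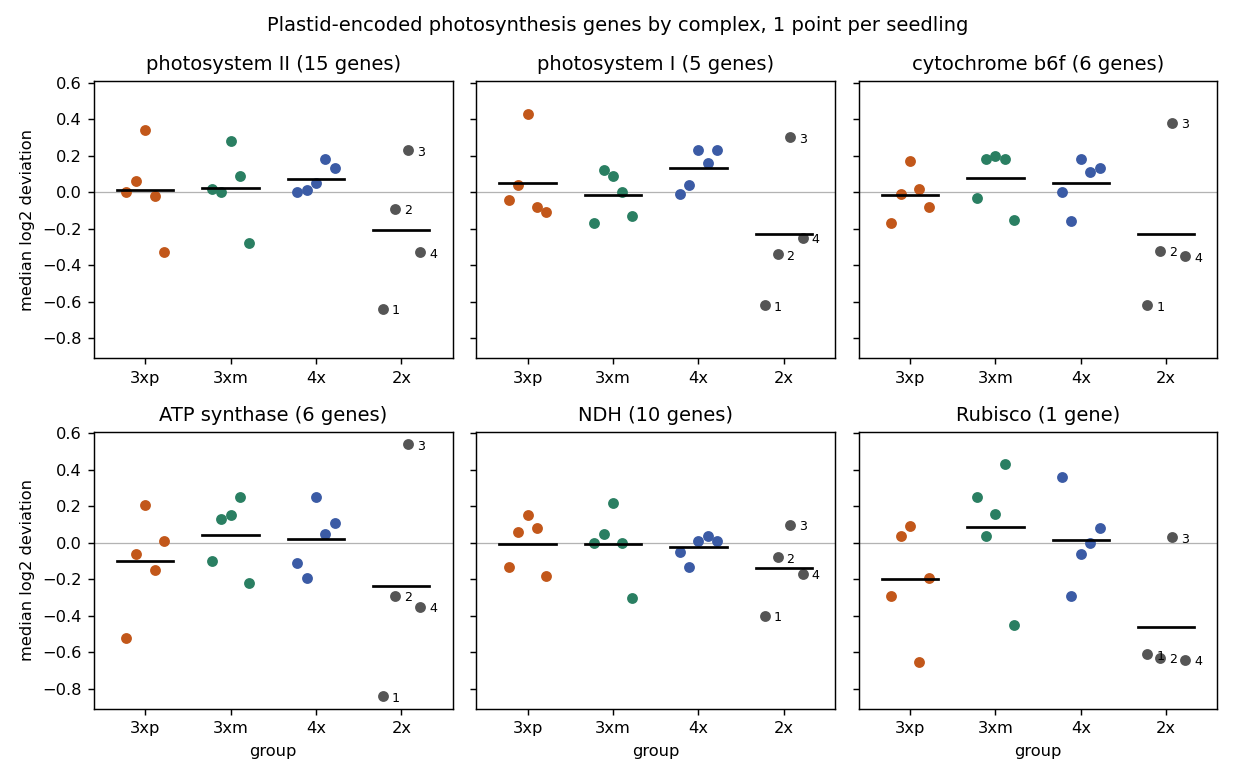
Median log2 deviation (log2 value minus the gene's median over 19 seedlings) of the plastid-encoded genes of each complex, 1 point per seedling, with a line at the group mean and the diploids labelled by seedling number. Diploid seedling 1 is the lowest of all 19 seedlings in every panel but Rubisco, and diploid seedling 3 the highest in the cytochrome b6f and ATP synthase panels.

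The contrast between both diploids ran through the whole set. Both, and the triploids named below, were picked out by these same 43 genes, which moved together from seedling to seedling. The shares over all probe sets involve no such choice, so these counts describe the seedlings and test nothing. Seedling 2x 1 was below 2x 3 in 43 of 43 genes, with a median gap of 0.676, while over all 22746 probe sets tested 2x 1 was the lower in 48.8%. In 23 of the 43 genes (53.5%) 2x 1 had the lowest value of all 19 seedlings, against 8.23% of all probe sets, and in none the highest. It lay below each of the 15 polyploid seedlings in 29 of 43 genes, against 9.70% of all probe sets. Seedling 2x 3 had the highest value of all 19 in 11 genes (25.6%), against 6.82% of all probe sets, and the lowest in 0. By median deviation 2x 1 ranked lowest of 19 in 5 of the 6 complexes and at position 4 from the lowest for *rbcL*. Seedling 2x 3 ranked highest for the cytochrome b6f complex and the ATP synthase, and at position 17 or 18 from the lowest for both photosystems and NDH. Among the triploids, 3xm 5 was the lowest of its group in 32 genes, 3xp 5 in 20 and 3xp 1 in 19. The shares of all probe sets were 18.9%, 22.7% and 23.3%. Seedling 3xp 3 was the highest of its group in 28 genes and 3xm 3 in 22, against 18.2% and 15.9% of all probe sets.

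**Figure D2:**
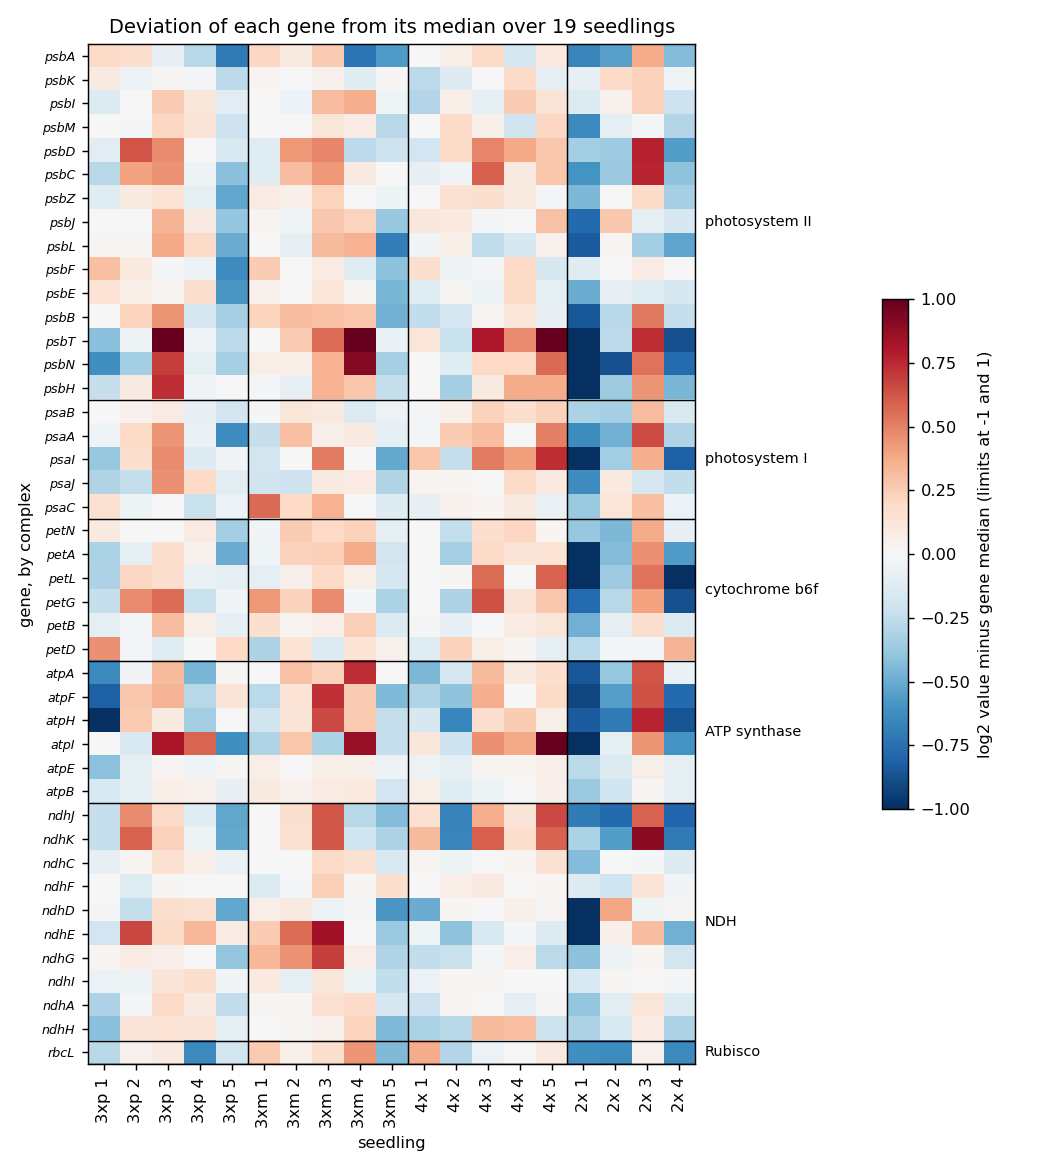
Deviation of each of the 43 genes (rows, by complex) from its own median over all seedlings on the log2 scale, in each of the 19 seedlings (columns, by group); colours end at −1 and 1. The column of seedling 2x 1 lies below the gene medians in 43 of 43 genes and that of 2x 3 above them in 34, with *psbT*, *psbN* and *atpI* among the most variable rows.

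Against the diploids, most genes had positive differences in each polyploid, and none passed the test. The test was limma on the log2 values of all seedlings, with Benjamini-Hochberg adjustment over all 22746 probe sets and a call at an adjusted p under 0.05. In 3xp, 40 of 43 differences were positive, with a median of 0.178, or 1.13-fold. In 3xm they were positive for 40 of 43, with a median of 0.213, or 1.16-fold, and in 4x for 42 of 43, with a median of 0.261, or 1.2-fold. The median over all probe sets was −0.00359, −0.00445 and −0.00325 in the same order. All 3 comparisons use the same 4 diploid arrays, so their shared direction is not repeated evidence.

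Over all probe sets 1.15% were called in 3xp against 2x, 0.0352% in 3xm and 0.958% in 4x, either direction. By limma 0 of the 43 genes were called in each, a share near that background, with smallest adjusted p of 0.36, 0.999 and 0.154. With array weights, which give less weight to arrays far from their group, 0, 0 and 3 genes were called, the 3 being *petL*, *psbN* and *psaI*. The diploid weights were 0.6864, 1.298, 0.7198 and 2.713 for 2x 1 to 2x 4. The weighted diploid mean thus leaned most on 2x 4, a low seedling for these genes. At an unadjusted p under 0.05 there were 3 of 43 genes in 3xp (6.98%), 8 in 3xm (18.6%) and 8 in 4x (18.6%), all with positive differences. Of all probe sets, 5.39%, 2.12% and 5.82% had a positive difference at that level, and 12.2%, 4.33% and 12.9% a difference of either sign. These p-values use an SE pooled over all groups. For the 43 genes the diploids had the widest spread (median SD 0.373, against 0.167 to 0.296 in the polyploids). Over all probe sets the diploid SD was 0.152, against 0.146 to 0.179. The pooled SE can thus be too small for the 43 genes, so these shares are not an equal comparison. In 0 of 43 genes did a polyploid group lie wholly above the diploids, while 2.38% of all probe sets did so in 3xp, 0.725% in 3xm and 3.31% in 4x. In 0 did one lie wholly below, against 2.48%, 0.642% and 3.93% of all probe sets. Without seedling 2x 1 the medians were 0.0607 in 3xp, 0.116 in 3xm and 0.127 in 4x, with 35, 37 and 32 positive differences. Without 2x 3 they were 0.279, 0.413 and 0.378, with 41 positive in each. With both seedlings left out, an alternative added after the data were seen, they were 0.217, 0.335 and 0.216, with 37, 36 and 37 positive.

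Photosystem II had 15 genes, with median differences of 0.203 in 3xp, 0.213 in 3xm and 0.308 in 4x. These medians were 0.0607, 0.114 and 0.176 without 2x 1, and 0.402, 0.393 and 0.381 without 2x 3. Its most variable gene, and that of the whole set, was *psbT*, for a small subunit near the reaction centre, with an SD of 0.681 between seedlings of a group. *psbT* had log2 values of 4.64, 5.01, 6.39, 5.03 and 4.80 in 3xp, of 5.06, 5.31, 5.62, 6.20 and 4.99 in 3xm and of 5.18, 4.84, 5.87, 5.53 and 6.38 in 4x seedlings, against 3.62, 4.80, 5.8 and 4.18 in 2x seedlings. It was lowest in 2x 1 and 2x 4, but 2x 3 lay above the middle seedling of each polyploid group, and every group overlapped with the diploids. The differences from 2x were 0.58 ± 0.416 in 3xp, 0.84 ± 0.416 in 3xm and 0.96 ± 0.416 in 4x, with limma adjusted p of 0.639, 0.999 and 0.328 in that order. Without 2x 1 the differences were 0.25, 0.51 and 0.63, while without 2x 3 they were 0.98, 1.24 and 1.36.

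*psbN*, next to *psbT* but read from the opposite strand, is needed to assemble photosystem II. *psbN* had log2 values of 8.53, 8.79, 9.83, 9.05 and 8.81 in 3xp, of 9.20, 9.21, 9.49, 10.06 and 8.81 in 3xm and of 9.14, 9.02, 9.34, 9.34 and 9.71 in 4x seedlings, against 7.71, 8.26, 9.68 and 8.37 in 2x seedlings. Relative to 2x it differed by 0.49 ± 0.326 in 3xp, 0.85 ± 0.326 in 3xm and 0.81 ± 0.326 in 4x, with limma adjusted p of 0.591, 0.999 and 0.284 in that order. With 2x 1 left out the differences were 0.23, 0.58 and 0.54, while without 2x 3 they were 0.89, 1.24 and 1.2. Seedlings 2x 1, 2x 2 and 2x 4 lay below every 3xp, 3xm and 4x seedling, and 2x 3 lay above all of them but 3xm 4, 3xp 3 and 4x 5. With array weights its 4x difference was 0.88 (limma adjusted p = 0.0468). *psbM*, for a small subunit at the contact between the monomers of the photosystem II dimer, varied over a narrower range. *psbM* had log2 values of 12.92, 12.91, 13.13, 13.05 and 12.71 in 3xp, of 12.92, 12.92, 13.04, 13.00 and 12.64 in 3xm and of 12.92, 13.11, 12.97, 12.72 and 13.13 in 4x seedlings, against 12.28, 12.83, 12.91 and 12.63 in 2x seedlings. Set against 2x, its differences were 0.28 ± 0.125 in 3xp, 0.24 ± 0.125 in 3xm and 0.31 ± 0.125 in 4x, with limma adjusted p of 0.36, 0.999 and 0.286 in that order. Leaving out 2x 1 gave 0.16, 0.12 and 0.18, while without 2x 3 they were 0.37, 0.33 and 0.39. Seedlings 2x 1 and 2x 4 lay below every polyploid, and 2x 2 and 2x 3 lay among them.

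Of the reaction centre genes, *psbA*, for the rapidly replaced D1 protein, differed by 0.17, 0.17 and 0.35 in 3xp, 3xm and 4x. *psbD*, for its partner D2, differed by 0.29, 0.19 and 0.35. The core antenna genes differed by 0.24, 0.33 and 0.13 (*psbB*) and by 0.17, 0.29 and 0.33 (*psbC*). *psbE* and *psbF* encode both subunits of a cytochrome of the photosystem. They differed by 0.18, 0.16 and 0.20 and by −0.05, −0.03 and 0.04. Among small subunits *psbH* (0.51, 0.45 and 0.50) and *psbL* (0.44, 0.40 and 0.35) had larger differences than *psbJ* (0.20, 0.21 and 0.29), *psbZ* (0.05, 0.21 and 0.23) and *psbI* (0.04, 0.13 and 0.03). *psbK* had negative differences in all 3 comparisons (−0.12, −0.08 and −0.13). None of these passed.

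Photosystem I had 5 genes, with median differences of 0.169 in 3xp, 0.203 in 3xm and 0.301 in 4x. Without 2x 1 the medians were 0.0295, 0.0628 and 0.196, and without 2x 3 0.257, 0.304 and 0.405. *psaI*, for a small membrane subunit, had the smallest p of the set. *psaI* had log2 values of 9.83, 10.37, 10.68, 10.08 and 10.18 in 3xp, of 10.03, 10.21, 10.73, 10.21 and 9.70 in 3xm and of 10.48, 9.98, 10.73, 10.63 and 10.95 in 4x seedlings, against 9.04, 9.86, 10.57 and 9.39 in 2x seedlings. Seedlings 2x 1 and 2x 4 were the lowest of all, whereas 2x 3 lay in the upper part of the polyploid range, so each group overlapped with the diploids. The differences from 2x were 0.51 ± 0.266 in 3xp, 0.46 ± 0.266 in 3xm and 0.84 ± 0.266 in 4x, with limma adjusted p of 0.463, 0.999 and 0.154 in that order. Without 2x 1 the differences were 0.29, 0.24 and 0.61, while without 2x 3 they were 0.80, 0.75 and 1.12. In 4x, *psaI* was called with array weights (0.93, limma adjusted p = 0.0284) and without 2x 3 (limma adjusted p = 0.0394), not without 2x 1 (limma adjusted p = 0.476). *psaB*, for one of the paired reaction centre proteins, had a mean above 12. *psaB* had log2 values of 12.79, 12.83, 12.87, 12.71 and 12.60 in 3xp, of 12.78, 12.91, 12.89, 12.65 and 12.73 in 3xm and of 12.78, 12.84, 13.02, 12.95 and 13.02 in 4x seedlings, against 12.47, 12.46, 13.10 and 12.64 in 2x seedlings. The highest value of all 19 was that of 2x 3 and the lowest those of 2x 1 and 2x 2. Relative to 2x it differed by 0.09 ± 0.111 in 3xp, 0.12 ± 0.111 in 3xm and 0.26 ± 0.111 in 4x, with limma adjusted p of 0.808, 0.999 and 0.314 in that order. With 2x 1 left out the differences were 0.03, 0.06 and 0.20, while without 2x 3 they were 0.24, 0.27 and 0.41. In 4x it was called without 2x 3 (limma adjusted p = 0.0389). Its partner *psaA* differed by 0.17, 0.21 and 0.40, and *psaJ*, for a small subunit, by 0.23, 0.13 and 0.30. *psaC*, for the protein that carries the terminal iron-sulfur clusters, was among the dimmest 30% of probe sets (a mean below 4.07) and differed by −0.03, 0.20 and 0.00.

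For the cytochrome b6f complex, 6 genes had median differences of 0.21 in 3xp, 0.375 in 3xm and 0.288 in 4x. Omitting 2x 1 made these medians 0.0523, 0.233 and 0.146, and omitting 2x 3 made them 0.401, 0.599 and 0.513. *petL* encodes a small subunit that stabilises the complex. *petL* had log2 values of 6.45, 6.97, 6.93, 6.69 and 6.67 in 3xp, of 6.67, 6.81, 6.96, 6.82 and 6.59 in 3xm and of 6.76, 6.77, 7.32, 6.76 and 7.35 in 4x seedlings, against 5.62, 6.40, 7.30 and 5.35 in 2x seedlings. Seedlings 2x 1, 2x 2 and 2x 4 lay below every polyploid seedling, and 2x 3 lay above all of them but 4x 3 and 4x 5. Set against 2x, its differences were 0.57 ± 0.273 in 3xp, 0.60 ± 0.273 in 3xm and 0.82 ± 0.273 in 4x, with limma adjusted p of 0.409, 0.999 and 0.173 in that order. Leaving out 2x 1 gave 0.39, 0.42 and 0.64, while without 2x 3 they were 0.95, 0.98 and 1.2. It was called without 2x 3 in 3xp (adjusted p = 0.0381) and in 4x (adjusted p = 0.0121), and with array weights in 4x (1.10, adjusted p = 0.0182). Without 2x 4 the differences were 0.30, 0.33 and 0.55, with limma adjusted p of 0.769, 0.998 and 0.443. *petA*, for cytochrome f, which hands electrons to plastocyanin, followed. *petA* had log2 values of 10.40, 10.63, 10.89, 10.76 and 10.22 in 3xp, of 10.68, 10.95, 10.96, 11.09 and 10.54 in 3xm and of 10.72, 10.39, 10.91, 10.85 and 10.86 in 4x seedlings, against 9.73, 10.29, 11.18 and 10.15 in 2x seedlings. The differences from 2x were 0.24 ± 0.215 in 3xp, 0.50 ± 0.215 in 3xm and 0.41 ± 0.215 in 4x, with limma adjusted p of 0.726, 0.999 and 0.454 in that order. Without 2x 1 the differences were 0.04, 0.30 and 0.21, while without 2x 3 they were 0.52, 0.79 and 0.69. Here 2x 1 was the lowest and 2x 3 the highest of all 19, and 2x 4 lay below every polyploid.

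*petG*, beside *petL* and needed for assembly, differed by 0.49, 0.54 and 0.53 in 3xp, 3xm and 4x. *petB*, for cytochrome b6, differed by 0.18, 0.21 and 0.16, and *petN*, for another small subunit, by 0.11, 0.25 and 0.17. *petD*, for subunit IV, was among the dimmest 30% of probe sets and differed by 0.09, −0.04 and 0.01.

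The ATP synthase had 6 genes, with median differences of 0.165 in 3xp, 0.449 in 3xm and 0.251 in 4x. They were 0.0614, 0.168 and 0.143 without 2x 1, and 0.437, 0.754 and 0.572 without 2x 3. *atpI* encodes the subunit that forms the proton channel beside the rotating ring. *atpI* had log2 values of 6.54, 6.39, 7.36, 7.12 and 5.93 in 3xp, of 6.24, 6.82, 6.22, 7.41 and 6.31 in 3xm and of 6.65, 6.33, 7.0, 6.92 and 7.62 in 4x seedlings, against 4.95, 6.44, 6.98 and 5.94 in 2x seedlings. Seedling 2x 1 was the lowest of all 19, and the other diploids lay within the polyploid range. Relative to 2x it differed by 0.59 ± 0.372 in 3xp, 0.52 ± 0.372 in 3xm and 0.83 ± 0.372 in 4x, with limma adjusted p of 0.57, 0.999 and 0.353 in that order. With 2x 1 left out the differences were 0.21, 0.15 and 0.45, while without 2x 3 they were 0.89, 0.82 and 1.13. Next in p was *atpB*, for the catalytic beta subunit. *atpB* had log2 values of 13.24, 13.30, 13.46, 13.43 and 13.31 in 3xp, of 13.48, 13.43, 13.47, 13.49 and 13.20 in 3xm and of 13.45, 13.27, 13.34, 13.39 and 13.44 in 4x seedlings, against 13.02, 13.19, 13.41 and 13.29 in 2x seedlings. Set against 2x, its differences were 0.12 ± 0.0845 in 3xp, 0.19 ± 0.0845 in 3xm and 0.15 ± 0.0845 in 4x, with limma adjusted p of 0.617, 0.999 and 0.483 in that order. Leaving out 2x 1 gave 0.05, 0.12 and 0.08, while without 2x 3 they were 0.18, 0.25 and 0.21. Seedlings 2x 1 and 2x 2 were the lowest of all, and 3xm 5 lay with them, apart from its group. The ring subunit gene *atpH* differed by 0.21, 0.53 and 0.34, the stalk subunit gene *atpF* by 0.33, 0.48 and 0.37 and the alpha subunit gene *atpA* by 0.01, 0.42 and 0.16. *atpE*, for the epsilon subunit, differed by 0.01, 0.14 and 0.10.

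The 10 NDH genes had median differences of 0.126 in 3xp, 0.174 in 3xm and 0.112 in 4x. Without 2x 1 these were 0.0477, 0.0864 and 0.0326, with 8, 8 and 5 of 10 positive, and without 2x 3 0.187, 0.239 and 0.188. *ndhG*, for a membrane subunit, had a larger difference in 3xm than in 4x. *ndhG* had log2 values of 5.26, 5.32, 5.29, 5.24 and 4.85 in 3xp, of 5.57, 5.69, 5.93, 5.31 and 4.94 in 3xm and of 4.99, 5.02, 5.22, 5.31 and 4.97 in 4x seedlings, against 4.83, 5.19, 5.26 and 5.06 in 2x seedlings. Seedlings 3xm 1, 3xm 2 and 3xm 3 were the highest of all 19, 2x 1 the lowest, and all groups overlapped. The differences from 2x were 0.11 ± 0.158 in 3xp, 0.40 ± 0.158 in 3xm and 0.02 ± 0.158 in 4x, with limma adjusted p of 0.856, 0.999 and 0.976 in that order. It was also the 1 gene with an unadjusted p under 0.05 between 3xm and 4x, with a difference of 0.38 ± 0.149 and a limma adjusted p of 0.46. *ndhE*, its neighbour and also a membrane subunit, also had a larger difference in 3xm than in 4x. *ndhE* had log2 values of 5.76, 6.62, 6.13, 6.28 and 6.03 in 3xp, of 6.20, 6.51, 6.79, 5.95 and 5.58 in 3xm and of 5.91, 5.55, 5.8, 5.94 and 5.82 in 4x seedlings, against 4.85, 6.0, 6.26 and 5.47 in 2x seedlings. Seedlings 2x 1 and 2x 4 were the lowest of all, while every 4x seedling lay below 2x 2 and 2x 3. Relative to 2x it differed by 0.52 ± 0.256 in 3xp, 0.56 ± 0.256 in 3xm and 0.16 ± 0.256 in 4x, with limma adjusted p of 0.43, 0.999 and 0.865 in that order. Without 2x 1 the differences were 0.25, 0.29 and −0.11, while without 2x 3 they were 0.72, 0.76 and 0.36. Without 2x 1 *ndhG* differed by 0.02, 0.32 and −0.07, so that both genes had a negative difference in 4x.

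In the unit of *ndhC*, *ndhK* and *ndhJ*, *ndhJ* differed by 0.38, 0.43 and 0.55, *ndhK* by 0.18, 0.22 and 0.38 and *ndhC* by 0.16, 0.18 and 0.17 in 3xp, 3xm and 4x. *ndhA* differed by 0.07, 0.17 and 0.08, *ndhH* by 0.14, 0.13 and 0.13, *ndhD* by 0.07, 0.06 and 0.08 and *ndhI* by 0.07, 0.00 and 0.03. *ndhF*, among the dimmest 30% of probe sets, differed by 0.03, 0.11 and 0.09. Without 2x 1, *ndhD* had differences of −0.21, −0.22 and −0.20.

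*rbcL*, for the large subunit of Rubisco, was not lowest in 2x 1. *rbcL* had log2 values of 10.16, 10.48, 10.53, 9.80 and 10.26 in 3xp, of 10.70, 10.49, 10.60, 10.88 and 10.00 in 3xm and of 10.81, 10.15, 10.38, 10.44 and 10.53 in 4x seedlings, against 9.83, 9.81, 10.48 and 9.80 in 2x seedlings. Set against 2x, its differences were 0.26 ± 0.188 in 3xp, 0.55 ± 0.188 in 3xm and 0.48 ± 0.188 in 4x, with limma adjusted p of 0.628, 0.999 and 0.264 in that order. With 2x 1 left out the differences were 0.22, 0.50 and 0.43, while without 2x 3 they were 0.43, 0.72 and 0.65. Seedlings 2x 1, 2x 2 and 2x 4 lay close together, and 2x 3 stood apart from them, inside the polyploid range. Of the polyploids, 3xp 4 was level with the low diploids. Omitting any single seedling left *rbcL* uncalled.

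**Figure D3:**
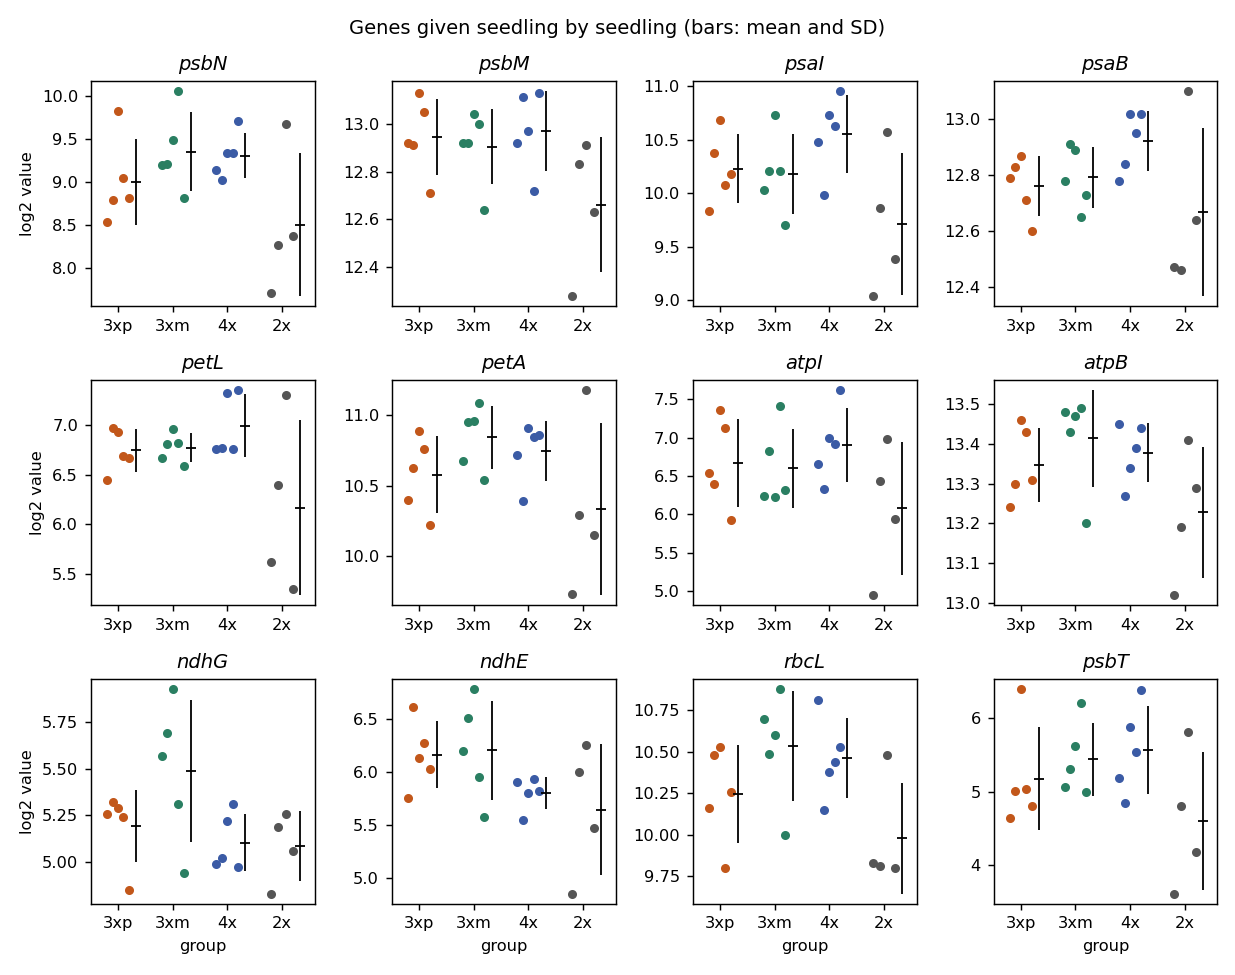
Log2 value of the 12 genes given seedling by seedling, 1 point per seedling, with a bar for the group mean and SD beside each group; the vertical axes differ between panels. The diploid bar is the longest in every panel but ndhG and rbcL.

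Read in the order of the plastid genome, the size of the difference varied within transcription units. In the unit of *psbB*, *psbT*, *psbH*, *petB* and *petD* the 4x differences were 0.13, 0.96, 0.50, 0.16 and 0.01, the larger ones lying between *psbB* and *petB*; without 2x 1 they were −0.08, 0.63, 0.23, 0.05 and −0.09. In that of *atpI*, *atpH*, *atpF* and *atpA* they were 0.83, 0.34, 0.37 and 0.16, and without 2x 1 0.45, 0.20, 0.20 and −0.07, so the first gene had the largest and the last the smallest in both. In 3xm the same 4 genes had 0.52, 0.53, 0.48 and 0.42, and in 3xp 0.59, 0.21, 0.33 and 0.01. The pair *petL* and *petG* was large in each comparison, with medians of 0.531 in 3xp, 0.568 in 3xm and 0.676 in 4x, or 0.376, 0.413 and 0.521 without 2x 1. *psbK* and *psbI* had medians of −0.0376, 0.0263 and −0.0503, or −0.0837, −0.0198 and −0.0965 without 2x 1 and 0.0305, 0.0944 and 0.0178 without 2x 3. The unit of *ndhH*, *ndhA*, *ndhI*, *ndhG*, *ndhE*, *psaC* and *ndhD* had medians of 0.0715, 0.171 and 0.0753. Without 2x 1 these were 0.022, 0.0837 and −0.0664, with 4, 5 and 1 of 7 positive. None of these orders was tested.

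**Figure D4:**
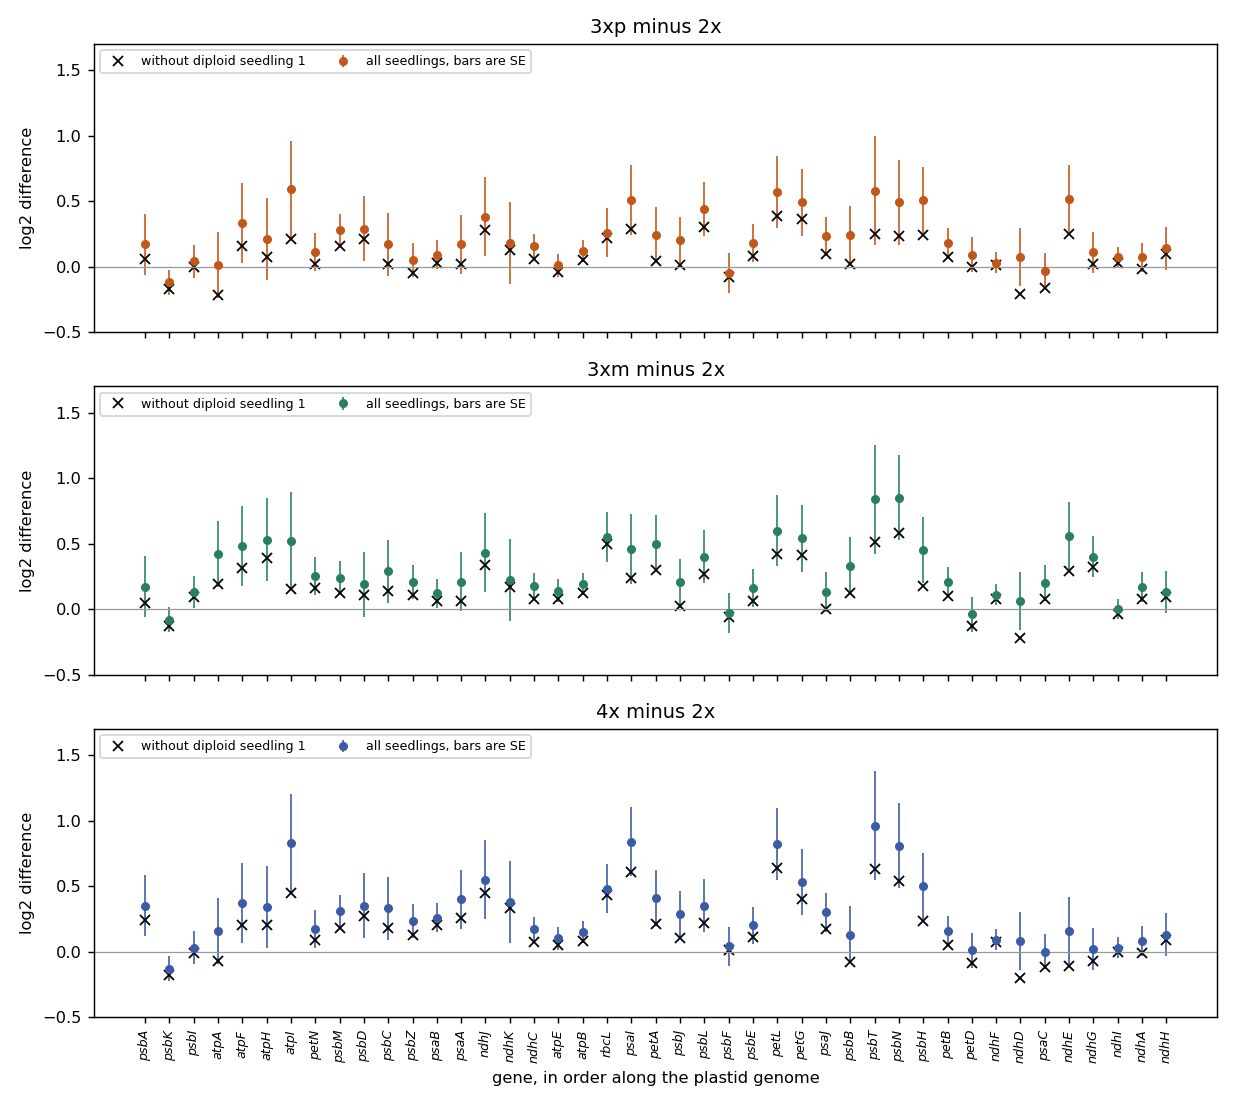
Log2 difference of each gene from the diploids (vertical axis; points with SE bars, all seedlings; crosses, without diploid seedling 1), with the genes in their order along the plastid genome, for 3xp, 3xm and 4x from top to bottom. Points lie mostly above 0, with a median of 0.261 in 4x, and without diploid seedling 1 that median is 0.127, with 38 of 43 genes closer to 0.

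The 6 genes with a mean of at least 12 (*psbM*, *psaB*, *petB*, *atpE*, *atpB* and *ndhI*) had median differences of 0.108 in 3xp, 0.161 in 3xm and 0.156 in 4x, against 0.178, 0.245 and 0.301 over the other 37. Without 2x 1 they had 0.0417, 0.0913 and 0.0654, against 0.0649, 0.143 and 0.172. The 3 genes among the dimmest 30% of probe sets had 0.0316, 0.105 and 0.00746, or 0.000177, 0.0796 and −0.0865 without 2x 1.

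Between the polyploid groups the median differences were smaller in size. For 3xp minus 3xm, 13 of 43 were positive, with a median of −0.04 and a range from −0.41 (*atpA*) to 0.13 (*petD*). The gene *rbcL* differed by −0.29 ± 0.177 (adjusted p = 0.84). For 3xp minus 4x, 11 were positive, with a median of −0.0602 and a range from −0.39 (*psbT*) to 0.36 (*ndhE*). For 3xm minus 4x, 22 were positive, with a median of 0.00171 and a range from −0.38 (*psaI*) to 0.40 (*ndhE*). By limma, with array weights too, 0 genes were called in each of the 3, where 0.0044%, 0.022% and 0.0747% of all probe sets were, and 0, 0 and 1 had an unadjusted p under 0.05, where 6.09%, 4.86% and 8.49% of all probe sets did. In the positive direction those shares of all probe sets were 2.96%, 2.26% and 4.14%. In 0 genes were the groups of any of these comparisons free of overlap, against 0.356%, 0.444% and 0.769% of all probe sets with the first group higher and 0.387%, 0.457% and 0.822% with it lower.

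The spread between seedlings of one group was widest in the diploids when all 4 were included, and relative to the triploids this rested on 2x 3. The median SD over the 43 genes was 0.296 in 3xp, 0.246 in 3xm and 0.167 in 4x, against 0.373 in 2x, whereas over all probe sets it was 0.175, 0.179 and 0.146, against 0.152. The tetraploid SD was below the diploid SD in 39 of 43 genes (90.7%), compared with 53.1% of all probe sets. Without 2x 1 this count was 35 (81.4%, against 44.7% of all probe sets), and without 2x 3 it was 27 (62.8%, against 45.5%). The diploid median SD was 0.33 without 2x 1 and 0.207 without 2x 3, the second being below those of 3xp and 3xm. In 3xp 35 genes and in 3xm 33 had an SD below that of 2x, where 41.0% and 38.6% of all probe sets did. Without 2x 3 these counts were 21 (48.8%) and 23 (53.5%), against 35.4% and 32.8% of all probe sets. By complex, the diploid median SD ran from 0.207 for NDH to 0.665 for the ATP synthase. It was not the widest for NDH, with 0.228 in 3xp and 0.258 in 3xm, for photosystem I, with 0.318 in 3xp against 0.299 in 2x, or for *rbcL*, with 0.332 in 3xm against 0.331 in 2x.

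**Figure D5:**
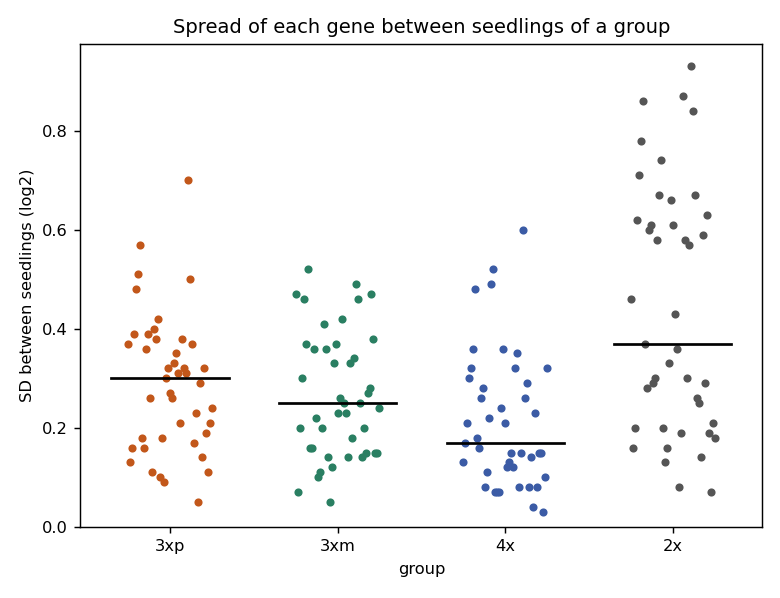
SD between the seedlings of each group on the log2 scale (vertical axis), 1 point per gene, set out sideways in plastid order within each group, with a line at the median. The line lies at 0.296 in 3xp, 0.246 in 3xm and 0.167 in 4x, against 0.373 in 2x.

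The genes moved together from seedling to seedling. After removing group means, 858 of 903 pairs of genes were positively correlated over the 19 seedlings, with a median Pearson correlation of 0.542 and a median Spearman correlation of 0.47. For the 54 pairs within a transcription unit the medians were 0.658 and 0.515, and for the other 849 pairs 0.537 and 0.467. Without 2x 1 they were 0.621 and 0.519 within units, and 0.468 and 0.439 for other pairs. These values describe pairs that share arrays, normalization and labelling reactions. The 43 differences of one comparison are therefore not separate measurements.

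The remaining plastid genes, for ribosomal proteins, the plastid polymerase and other functions, were also lowest in 2x 1. Seedling 2x 1 deviated by −1.01 and 2x 3 by 0.23 (median over 26 genes), with 3xm 4 (0.58) and 3xp 3 (0.37) above 2x 3. Their median differences were 0.304 in 3xp, 0.417 in 3xm and 0.389 in 4x, against 0.0579, 0.204 and 0.171 without 2x 1, and 0 of 26 were called in each. Mitochondrial genes, also transcribed in an organelle, deviated by −0.05 in 2x 1 and by 0.16 in 2x 3, the highest of all 19 seedlings. They had median differences of 0.061, 0.0877 and 0.0601 over 18 probe sets of 11 genes (0.0351, 0.0641 and 0.0474 without 2x 1) and 0 calls. The array's control probe set for cytosolic 25S ribosomal RNA read 10.55 in 2x 1, the lowest of all 19 seedlings, and 11.46 in 2x 3. Its group means were 11.24 ± 0.37 in 3xp, 11.30 ± 0.26 in 3xm and 11.44 ± 0.20 in 4x (SD, n = 5 each), against 11.10 ± 0.39 in 2x (SD, n = 4). The log2 gap between the control probe sets at the 3' and 5' ends of GAPDH, a measure of RNA integrity, was −0.17 in 2x 1 and −0.09 in 2x 3 and lay between −0.27 and 0.16 in the others. For actin it was 0.40 and 0.44, within 0.28 to 0.97 in the others. The part of these measures in the differences was not tested.

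Nucleus-encoded partners had median differences closer to 0. Of nucleus-encoded genes of these complexes and their antenna, 13 had a probe set annotated with 1 gene. Of these, 9 differences were positive in 3xp, 8 in 3xm and 11 in 4x, with medians of 0.0885, 0.0146 and 0.0559. Without 2x 1 these medians were 0.0369, −0.00795 and 0.0187. None of the 13 was called in any comparison with 2x, and 1 had an unadjusted p under 0.05 (*ATPC2*, −0.21 ± 0.0983 in 3xp, adjusted p = 0.406). *NdhS*, which helps NDH bind ferredoxin, differed by 0.22, 0.17 and 0.26, and *PSAN*, on the lumen side of photosystem I, by 0.28, 0.22 and 0.02. *PSBW* differed by 0.16, 0.08 and 0.05. In 2x 1 the 13 genes deviated by a median of −0.18 and in 2x 3 by −0.16. Of 20 nuclear genes of plastid transcription 1 had such a probe set in the annotation, the organelle polymerase gene AT5G15700. Its differences were −0.08, −0.14 and −0.09 (−0.015, −0.0801 and −0.0258 without 2x 1). Of 7 genes of plastid transcript processing and decay 1 had one, *CRP1* (AT5G42310), which in maize is needed for *petB* and *petD* messages. It differed by −0.15, −0.01 and −0.29 ± 0.129 (adjusted p = 0.351 in 4x), and by −0.235, −0.0959 and −0.37 without 2x 1. None of these was called. The leaf marker *RCA* had differences of −0.00127, −0.000303 and −0.00691. The 3 root markers had median differences of 0.40 in 3xp, 0.0376 in 3xm and 0.847 in 4x, or 0.636, 0.0817 and 1.15 without 2x 1. None of the 3 was called, while in 4x *EXPA18* (1.11 ± 0.394, limma adjusted p = 0.21) and *PYK10* (0.22 ± 0.0889, limma adjusted p = 0.273) had an unadjusted p under 0.05. These markers had a median deviation per seedling from −0.51 to 0.29 in 3xp, −1.77 to 0.53 in 3xm and −0.01 to 1.08 in 4x, against −1.17 to 0.01 in 2x. Their part in the plastid gene values was not tested.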

How the data were processed

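The deposited values are log2 levels that the authors computed with RMA, per the submitters' processing notes, which name no version. RMA removes background, gives all arrays 1 common distribution and combines the probes of a probe set. Per the labels' protocols, total RNA of each seedling was biotin-labelled with a 3' IVT kit. Every column of the table belonged to a seedling. Of 22810 probe sets, 64 controls were set aside and 22746 tested. Genes were named by the platform annotation and the TAIR10.1 gene table, which served for names and gene order, as the values name no build. Of the 22810 probe sets, 8794 were not listed in that annotation. A gene without a named probe set may therefore still be on the array.

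The test was limma 3.58.1 (R 4.3.3), fitted to all 19 seedlings with a mean per group and moderated variances, and adjusted by Benjamini-Hochberg over every probe set tested. Differences are first group minus second on the log2 scale, ± SE. The fit was tested on simulated data with independent noise and the same spread in every group. The genes described here were correlated and had unequal spread, so that test does not cover them. Each seedling is a replicate. Each p-value sets a group difference against the spread between these seedlings, pooled over all groups. For the genes described here that spread was unequal, with a median SD of 0.167 in 4x and 0.373 in 2x. The pooled SE can therefore be too small for their differences from 2x. The labels do not say whether seedlings of a group share a parent plant or a plate, and the number of arrays limits the precision.

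Any gene of the set could be named. Seedling values are given for the 2 genes of each complex with the smallest p against 2x (1 for Rubisco), and for the gene with the largest SD. The genes, lists, transcription units and this rule were chosen with earlier results of these data known. Other settings tried were a fit of the compared groups alone, trended and robust moderation, omission of the dimmest 30% of probe sets, further quantile normalization, nuclear median centring, array weights, a replicate block and omission of each seedling. Figures used matplotlib 3.10.9 (Python 3.11.15).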

Additional observations from a re-analysis of the deposited data

Results flagged for a closer look

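A gap test between the extreme seedling of a group and its nearest neighbour was run on 72 groups of values, the medians by complex and the 12 genes given by seedling. It marks a few groups by chance (about 1 in 20), and 5 were marked. *rbcL*, the only gene of the Rubisco median and given once here, read 10.48 in 2x 3, with the next diploid at 9.83. Photosystem I in 3xp 3 had a median deviation of 0.43, with the next 3xp seedling at 0.04. *psbT* in 3xp 3 read 6.39, with the next at 5.03. *ndhG* in 3xp 5 read 4.85, with the next at 5.24, and *atpB* in 3xm 5 read 13.20, with the next at 13.43. Values of different genes in 1 seedling are not independent of each other. Seedling 2x 1, the lowest of all 19 by the median over the 43 genes, was not marked in any of these groups.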

How the results depend on the processing

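No plastid gene was called in any of the 6 comparisons, and under the alternatives this count left 0 in 3 cases. In 4x minus 2x it was 3 with array weights (*petL* 1.10, *psbN* 0.88 and *psaI* 0.93), where 2x 4 had the largest weight (2.713). It was also 3 without 2x 3 (*petL* 1.2, *psaI* 1.12 and *psaB* 0.41), and in 3xp minus 2x it was 1 without 2x 3 (*petL* 0.95). With a seedling left out, the counts ranged from 0 to 1 in 3xp minus 2x, from 0 to 3 in 4x minus 2x and stayed at 0 in the others. The median differences ranged from 0.0607 to 0.279 in 3xp minus 2x, 0.116 to 0.413 in 3xm minus 2x and 0.127 to 0.378 in 4x minus 2x, each lowest without 2x 1 and highest without 2x 3. They ranged from −0.119 to −0.00217 in 3xp minus 3xm, −0.135 to −0.02 in 3xp minus 4x and −0.0351 to 0.0531 in 3xm minus 4x. Of the differences from 2x of the genes given by seedling, 960 kept direction and side of the threshold, 7 became called and 5 changed sign. All 5 were in 4x minus 2x, in *ndhG* and *ndhE*. In that comparison *ndhG* ranged from −0.07 (without 2x 1) to 0.08 with 1 seedling left out. It was −0.01 without 4x 3 and −0.03 without 4x 4. Without both 2x 1 and 2x 3, a setting added after the data were seen, it was −0.02. *ndhE* ranged there from −0.11 (without 2x 1) to 0.36. Genes not given by seedling changed sign too. Without 2x 1, *ndhD* went from positive to negative in 3xp, 3xm and 4x (−0.21, −0.22 and −0.20). None of these sign changes was called, and the cause was not tested. With centring on the nuclear median the medians against 2x were 0.195, 0.217 and 0.274 in 3xp, 3xm and 4x. With the replicate block they were 0.212, 0.263 and 0.286, and 0 genes were called in each of the 6 comparisons. Of 27 pairs of same-numbered seedlings 12 had a correlation of deviations over 0.1, from −0.375 to 0.435, so not every pair passed that limit and no label says what the number marks. The median correlation was 0.0383 for same-numbered pairs and −0.0035 for pairs of other numbers. As a hint from the data, 11 of 19 seedlings correlated best with their own number, and the number to be met by chance was not worked out. Replicate 3 had the highest median over the 43 genes in 3xp (0.18), 3xm (0.23) and 2x (0.30), not in 4x. A shared effect of the number was not tested beyond the block. Averaging probe sets within a gene left the 3 medians against 2x as they were, as each gene has 1. Leaving out the dimmest 30% of probe sets removed *petD*, *psaC* and *ndhF*.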
